A study of Bos taurus with 12 samples.

Results

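The comparison is of the medium and the low eluate of MBD-seq in tender beef, and its members are 53164 genomic regions. The autosomal peaks of the libraries MTE_1, MTE_2, LTE_1 and LTE_2 were joined wherever they had 1 bp or more in common on chromosomes 1 to 29. The same joining over all 12 libraries of the series gives 74459 autosomal regions. A region with a peak in both MTE and in neither LTE library is called medium-only here (14153 regions), a region with a peak in both LTE and in neither MTE library low-only (611 regions), and a region with a peak in every library a region of all 4 libraries (5055 regions).

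MTE and LTE are the medium and the low methylated DNA of longissimus muscle from 2 Angus steers. These animals were picked at random from the 4 with the lowest shear force (WBSF), were slaughtered at about a year of age and had been raised together on a single diet. HTE is the high methylated DNA of tender beef, and HTO, MTO and LTO are the same eluates of 2 steers with tough beef. Each condition has 2 libraries, the label names the muscle longissimus dorsi and the paper longissimus lumborum, and the DNA is that of whole muscle with every cell type it holds. The eluates are serial fractions of a capture, so MTE and LTE are not DNA of different animals, and no source says that replicate 1 of MTE and replicate 1 of LTE come from the same steer. In the Methods the buffer of lowest salt releases the most methylated DNA, whereas the paper's Discussion and notes to a supplement describe the opposite order and the labels call the LTE eluate the low gradient. The eluates are therefore named by methylation level and not by salt.

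In mammalian genomes most cytosine methylation lies at CpG dinucleotides, and a methyl-CpG binding domain (MBD) holds a DNA fragment more tightly the more methylated CpGs it carries. Washing the captured DNA with buffers of rising salt concentration therefore releases fragments in an order set by their density of methylated CpGs. In muscle, as in other tissues of mammals, repeats and gene bodies carry much of the methylation, and active promoters in CpG islands carry little.

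The headers of the peak lists give 11889327 and 12635437 mapped tags for MTE_1 and MTE_2, and 8162432 and 12051816 for LTE_1 and LTE_2. After duplicate removal 6589423, 6886676, 5770411 and 7165381 tags were left, in the same order, so LTE_1 was the shallowest and LTE_2 the deepest of the 4 libraries and the eluates overlap in depth. LTE_1 kept 70.7% of its tags and the other libraries between 54.5% and 59.5%.

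The medium eluate gave more peaks, and they stood closer together. MTE_1 had 33562 and MTE_2 had 35688 autosomal peaks, whereas LTE_1 had 9555 and LTE_2 had 16881. The mean was 34625 ± 1503 (SD, n = 2) in the medium and 13218 ± 5180 (SD, n = 2) in the low eluate, a ratio of 2.73 from the mean log2 numbers, and the libraries did not overlap (two-sided exact permutation test, p = 0.333, which is the smallest p that 2 libraries against 2 allow). Per 1000000 tags left the ratio was 2.60. The low eluate was also the more variable, since LTE_2 had more peaks than LTE_1 by a margin wider than that between the MTE libraries. In the lists called on the merged replicates the log2 ratio was 0.36, against 1.45 in the single libraries. The merged lists were called from more tags, with another MACS2 version and effective genome size.

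The median gap from the end of a peak to the start of the next was 16.6 kb in MTE_1, 15.0 kb in MTE_2, 51.2 kb in LTE_1 and 54.1 kb in LTE_2. The medium gap was 0.300 times the low gap, without overlap of the libraries (exact permutation test, p = 0.333). When the 9555 peaks with the highest −log10 p of each library were compared, the log2 ratio of the gaps shrank from -1.74 to -0.12. Over all peaks of the tender libraries, peak width differed little. The median width was 214 bp in MTE_1, 200.5 bp in MTE_2, 210 bp in LTE_1 and 183 bp in LTE_2, the eluates overlapped, and the difference of 10.8 bp gave p = 0.667 (exact permutation test). Without LTE_2 the sign of this difference turned, to -2.75 bp, and over equal numbers of peaks it was 81 bp (exact permutation test, p = 0.333). In tough beef the medium peaks were the wider, without overlap of the libraries. The mean of the library medians was 236.5 bp in MTO and 191 bp in LTO (exact permutation test, p = 0.333). A width cannot fall below the fragment length that MACS2 estimated for the library, and 14.90%, 14.46%, 20.01% and 24.93% of the peaks of MTE_1, MTE_2, LTE_1 and LTE_2 lay exactly at it.

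**Figure D1:**
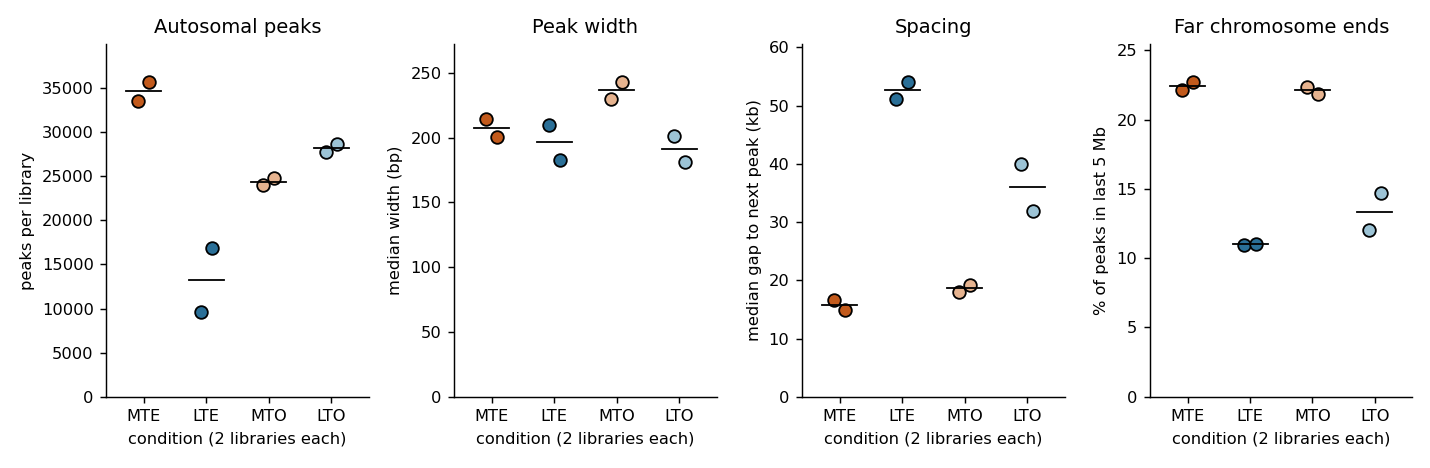
Autosomal peaks, median peak width, median gap to the next peak and percent of peaks in the last 5 Mb of a chromosome, by condition; each point is a library and each line the mean of 2 libraries. The MTE libraries have more peaks and smaller gaps than the LTE libraries, and in both tender and tough beef the medium libraries hold the larger percent of peaks at the far chromosome ends.

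Of the 53164 regions, 50.2% had a peak in a single library only (26666 regions), most of them in MTE_2 (10599) or MTE_1 (8625). The medium-only regions made up 26.6% of all regions (Wilson 95% interval 26.25 to 27.00%) and the low-only regions 1.15% (1.06 to 1.24%). These intervals reflect counting alone, and regions are not replicates of an eluate. There were thus 23.2 medium-only regions for each low-only region. The ratio was 1.81 (2069 and 1141 regions) when each library entered with the same number of peaks, and 1.48 (4791 and 3234 regions) in the medium and low eluates of tough beef, where the LTO libraries had more peaks than the MTO libraries. Of the regions present in 3 libraries, 3040 lacked a peak in LTE_1 alone, 988 in LTE_2 alone, and 233 and 220 in MTE_2 and MTE_1 alone. Leaving out LTE_1 raised the low-only count from 611 to 6420, and leaving out MTE_1 raised the medium-only count to 25058. With a library left out its eluate is judged by the other library alone, so these counts rise by construction. With all 4 libraries in the joining, 5789 regions had a peak in LTE_2 only.

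Regions of all 4 libraries were the widest. Their median width was 420 bp (interquartile range 301 to 618 bp), against 257 bp (214 to 333 bp) for medium-only and 233 bp (200.5 to 283 bp) for low-only regions. A joined region grows with the number of peaks in it, so the width of the library's own peak is the fairer measure. It was 355 bp in MTE_1, 345 bp in MTE_2, 290 bp in LTE_1 and 319 bp in LTE_2 for regions of all 4 libraries, 220 and 212 bp for medium-only regions in MTE_1 and MTE_2, and 187 and 193 bp for low-only regions in LTE_1 and LTE_2. Widths of 1 kb or more were found in 379 regions of all 4 libraries, 26 medium-only regions and no low-only region. Within the regions of all 4 libraries, both MTE peaks were wider than both LTE peaks in 2036 (40.3%) and narrower in 773 (15.3%), and the median difference of the means was 19.5 bp.

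Pileup, the number of extended tags at a peak's summit, sets the classes apart. Since peak presence made the classes and presence needs pileup, these values are a description with no test. The median rank of the peak within its library, from 0 for the lowest to 100 for the highest pileup, was 88.5 in both MTE libraries, 70.4 in LTE_1 and 80.7 in LTE_2 for regions of all 4 libraries. Medium-only regions sat in the middle of their libraries, with median ranks of 52.9 in MTE_1 and 52.0 in MTE_2. Low-only regions had median ranks of 42.9 in LTE_1 and 56.8 in LTE_2.

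The regions of all 4 libraries fell into a low and a high group of pileups. The authors kept at most 1 tag per position and strand, so the pileup of a library cannot exceed 2 times its fragment length, which is 314 tags in MTE_1, 292 in MTE_2, 310 in LTE_1 and 294 in LTE_2. The highest pileups were 309, 288, 299 and 290 tags, or 96.5% to 98.6% of that limit. Of the regions of all 4 libraries, 3319 (65.7%) had a mean pileup of 25% or more of the limit. Their median pileups were 169 tags in both MTE libraries, 98 in LTE_1 and 120 in LTE_2, yet their fold enrichment over the local background was low, with medians of 2.97 in the medium and 2.71 in the low eluate, and the next such region was 1.10 kb away at the median. The other 1736 regions had median pileups of 17, 17, 13 and 15 tags, fold enrichments of 9.27 and 7.28, and a median gap of 715 kb. Medium-only regions resembled the second group. Their median pileup was 13 tags and their median fold enrichment 7.15 in MTE_1 and 7.21 in MTE_2, and 7.07% and 7.13% of them reached 25% of the limit. In low-only regions the median pileup was 11 tags and the median fold enrichment 6.20 in LTE_1 and 6.18 in LTE_2, and 12.9% and 16.2% reached 25% of the limit.

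**Figure D2:**
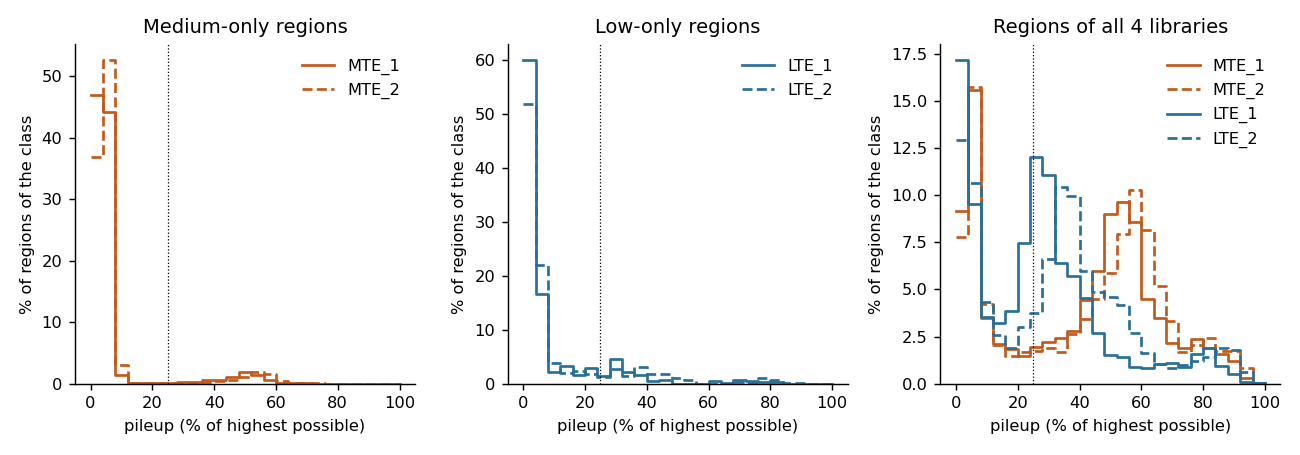
Distribution of pileup over the regions of each class, in percent of the highest pileup the library's tag filter allows; each line is a library and the dotted line marks 25%. Most medium-only and low-only regions lie under the line, whereas regions of all 4 libraries have a second mode above it, further to the right in MTE than in LTE.

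The classes also differed in how they were spread over the genome. The median gap to the next region of the same class was 37.7 kb for medium-only, 1490 kb for low-only and 3.66 kb for regions of all 4 libraries, and the next region lay within 10 kb for 23.4%, 8.93% and 57.0% of them. The gaps follow in part from the class sizes. A region of all 4 libraries lay within 10 kb of 30.4% of low-only but of 9.82% of medium-only regions, at median distances of 150 kb and 297 kb. It took 281 windows of 1 Mb to hold 50% of the medium-only regions, 131 windows for the low-only and 121 for the regions of all 4 libraries. The classes have 14153, 611 and 5055 regions in 2144, 436 and 1295 windows. Window counts depend on class size too and cannot be set against each other directly.

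The densest window of medium-only regions was chr3:82000001-83000000 with 69 of them, followed by chr9:103000001-104000000 with 65. They were unlike each other. In the chromosome 3 window the median pileup was 157 tags and the median fold enrichment 1.89, and 39 regions of all 4 libraries lay beside the medium-only regions. In the chromosome 9 window, at the far end of that chromosome, the pileup was 15 tags, the fold enrichment 6.62, and only 3 regions of all 4 libraries were present. The densest windows of low-only regions were chr14:1-1000000 with 17 and chr27:28000001-29000000 with 12. The latter is also the densest window of regions of all 4 libraries, with 228, ahead of chr8:74000001-75000000 with 156.

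The far ends of the chromosomes held a larger part of the medium than of the low peaks. Cattle autosomes carry their centromere at the end where coordinates begin, so the far end is the distal telomere. As chromosome length the highest peak end over all deposited lists was used. In the last 5 Mb of the 29 autosomes, which are 5.77% of their length, lay 22.1% of the peaks of MTE_1 and 22.7% of those of MTE_2, against 10.96% in LTE_1 and 11.02% in LTE_2. The medium libraries did not overlap the low libraries, and the same was seen in tough beef, with 22.4% and 21.9% in MTO and 12.0% and 14.7% in LTO. Over the 9555 strongest peaks per library the values were 14.2% and 14.1% in MTE and 10.96% and 8.64% in LTE, still without overlap. The first 5 Mb held 8.07% and 7.94% of the MTE peaks and 9.61% and 8.71% of the LTE peaks. By class, 27.5% of medium-only, 14.4% of low-only and 7.66% of regions of all 4 libraries lay in the last 5 Mb, against 21.7% of all regions. The first 5 Mb held 7.57%, 11.9% and 10.5% of the classes and 7.86% of all regions. This measure was chosen after the data were seen and was not tested.

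Peaks of the medium eluate made up a larger share of a library on 9 of the 29 autosomes (31% of those tested) and a smaller share on 6 (20.7%), by limma on log2 shares with Benjamini-Hochberg adjustment at 0.05. The largest difference was on chromosome 25, the shortest in length, with 3.54% and 3.66% of the peaks of MTE_1 and MTE_2 and 2.23% and 2.28% of those of LTE_1 and LTE_2. The log2 difference was 0.68 (SE 0.05, limma adjusted p = 4.25e-06), and the medium libraries lay above the low ones. Chromosome 23 followed with shares of 2.87% and 2.80% in MTE and 1.800% and 2.103% in LTE, a log2 difference of 0.54 (SE 0.07, limma adjusted p = 0.000152). Chromosome 19 had 4.11% in both MTE libraries and 2.87% and 3.04% in LTE, a log2 difference of 0.48 (SE 0.05, limma adjusted p = 7.76e-05). Chromosomes 18, 26, 24, 22, 12 and 16 also had the higher share in the medium eluate, by 0.45 down to 0.14 on the log2 scale.

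In the other direction chromosome 27 had 3.64% of the peaks of both MTE libraries and 5.70% and 4.79% of those of LTE_1 and LTE_2 (log2 difference -0.52, SE 0.08, limma adjusted p = 0.00047). Chromosome 8 had 4.70% and 4.61% in MTE and 6.96% and 6.21% in LTE (-0.50, SE 0.08, limma adjusted p = 0.00047). Both hold a dense window of regions of all 4 libraries, and the low libraries, with fewer peaks in all, have a larger part of their peaks there. Chromosome 6 had 3.52% and 3.54% in MTE and 4.53% and 4.36% in LTE (-0.33, SE 0.06, limma adjusted p = 0.000536), and chromosomes 1, 28 and 14 were also lower in the medium eluate. Without the peaks in regions of all 4 libraries the difference of chromosome 27 was -0.19 and that of chromosome 8 was -0.36, and both were still called.

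When libraries entered with equal numbers of peaks, 1 chromosome had the higher share in medium and 3 in low, and the difference of chromosome 27 turned to 0.03. Across the 29 chromosomes the log2 difference went down with length (Pearson's r = -0.49, Spearman's rho = -0.52), a description over chromosomes that share the same 4 libraries. Per Mb, chromosome 25 had 13.5 medium-only regions, against 3.55 on chromosome 1 and 3.41 on chromosome 2. For low-only regions the highest density was 0.925 per Mb, on chromosome 27.

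**Figure D3:**
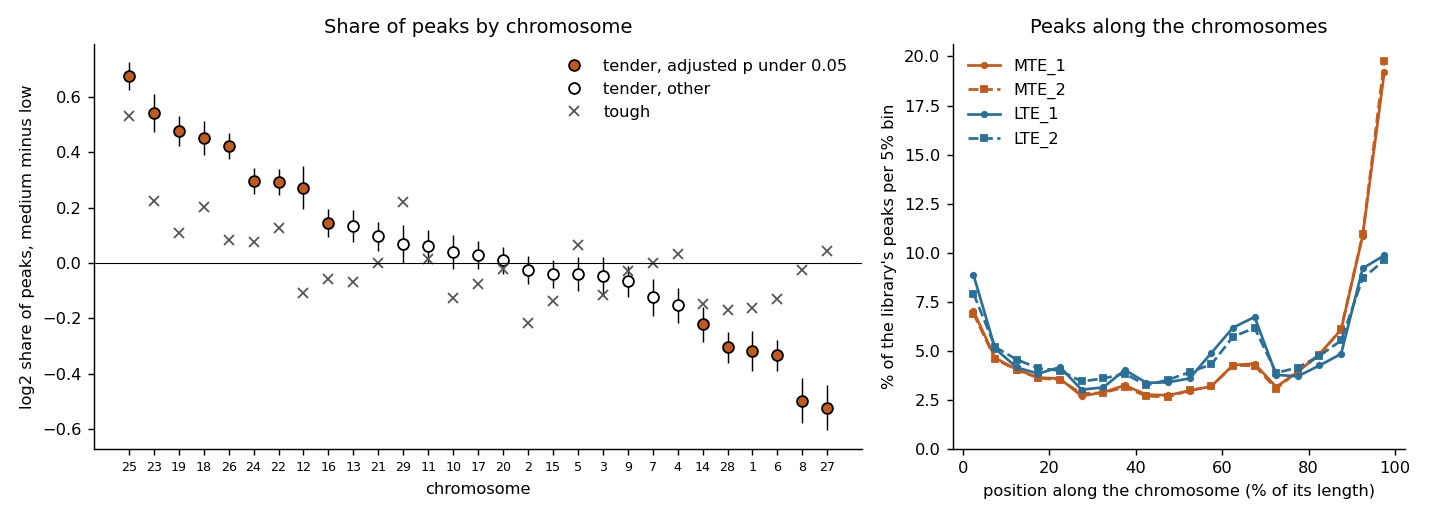
Left, mean log2 share of peaks on each chromosome, medium minus low, with SE in tender beef (circles, filled where the limma adjusted p is under 0.05) and as values in tough beef (crosses). Right, percent of each library's peaks in 20 bins along the chromosomes. Chromosome 25 is highest and chromosomes 8 and 27 are lowest in tender beef, and the last bin holds 19.2% and 19.8% of the MTE peaks but 9.86% and 9.61% of the LTE peaks.

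Where all 4 libraries had a peak, the pileups themselves could be compared. As the deposited pileup is not divided by library size, log2 pileups were quantile normalized, which leaves only the order of the regions within a library, and fitted with limma over the 5055 regions. At an adjusted p of 0.05, 1222 regions ranked higher in the medium eluate (24.2% of those tested) and 1043 in the low eluate (20.6%). The normalized difference was 1 or more on the log2 scale, in the direction of the call, in 129 of the former and 166 of the latter. The median difference was 0.34 in the former and -0.62 in the latter. A mean pileup of 25% or more of the limit was present in 926 of the 1222 regions higher in medium and 725 of the 1043 higher in low. Over all 5055 regions tested it was present in 3319 (65.7%).

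These counts rest on how the libraries are put on a common scale and on every library. With pileups per 1000000 tags left, 2946 regions were higher in medium and 429 in low (87.3% of the calls in medium), and with each library centred on its median the counts were 615 and 1926 (24.2% in medium), against 54.0% under quantile normalization. The median of all regions was 0.07 under quantile normalization, 0.47 per 1000000 tags and -0.16 after centring, and directions are given here relative to the first. When any 1 of the 4 libraries was left out, limma called 0 regions in either direction, with 1947 to 2421 regions at an unadjusted p under 0.05. Among the 1736 regions under 25% of the limit, fitted alone, 247 were higher in each eluate.

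Among regions higher in medium the largest normalized difference was that of chr17:52274096-52274575 on bosTau8. Its pileups were 40 and 46 tags in MTE_1 and MTE_2 and 7 tags in both LTE libraries, with fold enrichments of 19.4 and 19.8 against 5.95 and 5.69. The log2 difference was 2.36 (SE 0.21, limma adjusted p = 8.41e-05). The high eluate of the same beef was higher still there, with 81 and 99 tags in HTE_1 and HTE_2. At chr19:58779455-58779746 the pileups were 29 and 30 tags in MTE and 7 and 6 in LTE (log2 difference 1.98, SE 0.23, limma adjusted p = 0.000237), and none of the 4 high libraries had a peak. At chr3:16063397-16064371 they were 33 and 25 against 7 and 7 tags, at chr27:41474626-41475453 26 and 27 against 6 and 7 tags, and at chr23:38270911-38271404 69 and 60 against 11 and 21 tags. In each of these 5 regions both medium pileups lay above both low pileups. The 5 were picked for the largest difference in these same libraries, so this order follows from the choice and is no added support.

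Of the regions higher in low the first was chr6:5322098-5322363, where the pileups were 11 and 12 tags in MTE_1 and MTE_2 and 29 and 56 tags in LTE_1 and LTE_2. The log2 difference was -2.15 (SE 0.25, limma adjusted p = 0.000237). Another 2 of the first 5 lay near it, chr6:5904660-5905192 with 11 and 17 tags against 37 and 50, and chr6:6547871-6548115 with 16 and 13 tags against 33 and 44. The others were chr11:102955469-102955851, with 10 and 9 tags against 25 and 33, and chr7:83304276-83304602, with 14 and 12 tags against 30 and 43. Both low pileups lay above both medium pileups in all 5, which again follows from the choice. No high library of tender beef had a peak in any of them. The 10 regions of both directions kept their sign under each setting in which they could be fitted, and their adjusted p rose past 0.05 only where a library was left out, in each of those 40 values.

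The stretch chr6:5000001-7000000, looked at after these values were seen, held 41 regions of all 4 libraries, of which 14 were higher in low and 10 in medium, at log2 differences from -2.15 to 1.47. It also held 17 low-only regions, as many as the densest window of that class though over a longer stretch, and 14 medium-only regions. The stretch had 148 regions of any pattern. Over all 5055 regions tested, 20.6% were higher in low and 24.2% in medium, so calls in both directions were not particular to it. Over all 53164 regions, 1.15% were low-only and 26.6% medium-only.

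The 5 medium-only regions of highest rank had pileups of 73.6% to 80.5% of the limit. Both libraries ranked chr6:89216237-89216721 at 99.0 or above, with 243 and 235 tags and a fold enrichment of 1.68 and 1.69. It had a peak in each of the 8 other libraries of the series, LTO included. Next came chr24:56955710-56956086 (243 and 227 tags), chr1:145297967-145298149 (238 and 235), chr1:145448224-145448470 (240 and 223) and chr24:56936759-56937196 (231 and 224). The low-only regions of highest rank were chr7:56576856-56577053 (259 and 260 tags in LTE_1 and LTE_2), chr1:145299219-145299396 (248 and 247), and 3 regions of chromosome 29 between 30303591 and 30366659 bp with 229 to 246 tags, at fold enrichments of 1.47 to 1.91. The medium-only region chr1:145297967-145298149 and the low-only region chr1:145299219-145299396 were 1069 bp apart in the same stretch of high coverage.

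Chosen by fold enrichment instead, after the values were seen, the first medium-only regions were chr6:62581419-62581692 (28 and 31 tags, fold enrichment 18.5 and 20.6), chr10:84979149-84979471 (32 and 28 tags) and chr12:68877971-68878254 (28 and 31 tags). All 3 had a peak in each of the 8 libraries other than LTE. The first low-only regions were chr6:4626309-4626586 (20 and 30 tags, fold enrichment 14.3 and 18.8), chr15:4916937-4917201 (20 and 22 tags) and chr4:26225618-26225890 (16 and 23 tags). Each had a peak in both LTO and in neither MTO library. The widest medium-only regions were chr21:16959065-16960403 (1339 bp) and chr22:7340554-7341846 (1293 bp), and the widest low-only regions chr9:102291200-102291956 (757 bp) and chr4:118508981-118509683 (703 bp).

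Libraries that took no part in making the classes were then asked for a peak in the same regions. In tough beef, from other animals, 61.6% and 63.1% of medium-only regions had a peak in MTO_1 and MTO_2, against 31.2% and 37.9% in LTO_1 and LTO_2. The difference of 27.8 percentage points kept its sign under each setting tried, and the libraries did not overlap (exact permutation test, two-sided, p = 0.333). For low-only regions the order was the opposite, with 6.06% and 6.87% in MTO and 55.2% and 63.2% in LTO, a difference of -52.7 points (exact permutation test, p = 0.333). The LTO libraries had 27783 and 28599 autosomal peaks and the MTO libraries 23982 and 24797. Of the regions of all 4 libraries, 90.9% and 91.2% had a peak in MTO and 96.0% and 97.3% in LTO. Regions with a peak in a single MTE library and no other had one in MTO in 19.9% and 21.1% and in LTO in 15.7% and 17.0%. For those of a single LTE library the values were 2.97% and 3.61% in MTO and 17.1% and 17.6% in LTO. When the class was made without LTE_1 or without LTE_2, the difference for low-only regions shrank to -17.4 and -25.6 points. The class then also takes in regions with a peak in a single LTE library.

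The strict pattern, a peak in both MTO and in neither LTO library, was met by 2821 medium-only regions (19.9%), and its opposite by 324 (2.29%). For low-only regions 210 (34.4%) had a peak in both LTO and in neither MTO library, and 2 had the opposite pattern. Of the regions of all 4 libraries, 0.30% had a peak in both MTO and in neither LTO library, and 4.23% the opposite pattern. No peak in any of the 4 tough libraries was found for 14.6% of medium-only and 21.9% of low-only regions.

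The high eluate was set beside them as a further level. Of the medium-only regions 29.5% and 36.4% had a peak in HTE_1 and HTE_2, of the low-only regions 1.64% and 1.80%, and of the regions of all 4 libraries 74.2% and 75.8%. The HTO libraries gave 26.3% and 33.0%, 1.80% and 1.64%, and 72.5% and 73.8%. Medium-only regions with a peak in both HTE libraries (3499) were wider than those with a peak in neither (8320), with medians of 334 and 234 bp, and ranked higher, at 70.5 against 38.6 in MTE_1 and 72.5 against 38.3 in MTE_2. They had a peak in MTO_1 in 93.4% and 43.5% of cases, whereas for LTO_1 the values were 34.4% and 30.3%.

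Absence of a peak in a single library did not mean absence of tags. In the list called on the merged LTE replicates 35.7% of medium-only regions had a peak, and in that of merged MTE replicates 50.1% of low-only regions did. The classes are thus differences in what passed the peak threshold at this depth, and neither class was shown to lack methylated DNA in the other eluate.

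**Figure D4:**
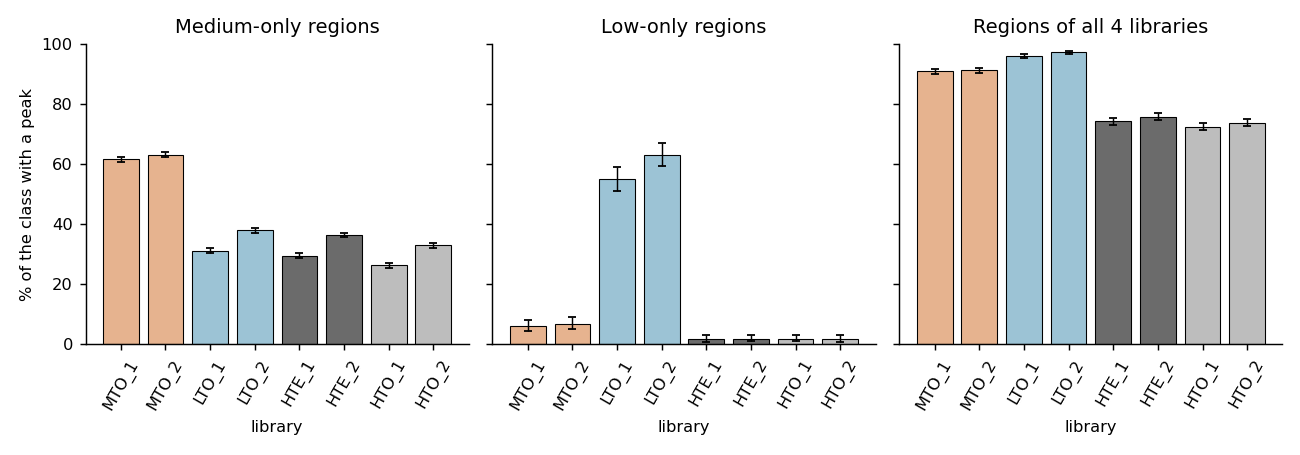
Percent of medium-only, low-only and all-4 regions with a peak in each of the 8 libraries that did not define them, with Wilson 95% intervals that cover counting error only. Medium-only regions have a peak more often in MTO than in LTO, low-only regions far more often in LTO (55.2% and 63.2%) than in any other library.

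The differences in pileup were compared with tough beef in the same way. Of the 5055 regions, 4316 also had a peak in every MTO and LTO library, and limma fitted to these 4 libraries called 1524 higher in medium (35.3%) and 1161 higher in low (26.9%). Of the regions higher in medium in tender beef, 1166 could be tested and 819 of them (70.2%) were also higher in medium in tough beef, which is 53.7% of the tough list. Of those higher in low, 803 could be tested and 668 (83.2%) were also higher in low, 57.5% of the tough list. The opposite call was made for 30 and 1 of them. The sign was the same in 92.7% and 97.5%, and in 71.3% of the 2347 regions with no call in tender beef. The 2 fits share no library. As in tender beef, limma called 0 regions when MTO_1, MTO_2 or LTO_2 was left out (1684 to 2318 at an unadjusted p under 0.05), whereas without LTO_1 558 and 547 regions were called in the same direction in both.

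The named regions differed in this respect. At chr6:5904660-5905192 and chr6:6547871-6548115 the tough libraries had 10 and 9 tags in MTO against 33 and 39 in LTO, and 8 and 10 against 31 and 30, with log2 differences of -1.77 and -1.60 (limma adjusted p = 0.00158 and 0.00202). At chr23:38270911-38271404 the tough pileups were 42 and 40 tags in MTO and 37 and 35 in LTO, a log2 difference of 0.45 against 1.78 in tender beef. At chr19:58779455-58779746 they were 14 and 10 tags in MTO and 17 in both LTO libraries. The tough log2 difference there was -0.38 (SE 0.28, limma adjusted p = 0.252), opposite in sign to tender beef but not called. At chr3:16063397-16064371 the tough pileups were 16 tags in both MTO libraries and 11 and 14 in LTO. Its tough log2 difference was 0.54 against 1.83 in tender beef, and was not called either (limma adjusted p = 0.0868).

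**Figure D5:**
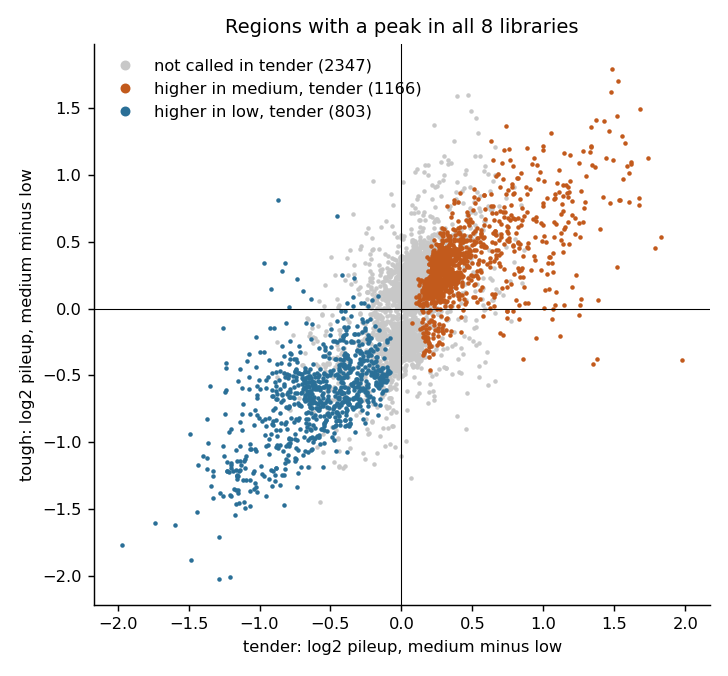
Normalized log2 pileup difference, medium minus low, in tender (horizontal axis) and tough beef (vertical axis) for the 4316 regions with a peak in all 8 libraries; each point is a region, coloured by its limma call in tender beef. Regions higher in medium lie mostly at the upper right and regions higher in low at the lower left.

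By chromosome, tough beef had the higher share in medium on 4 autosomes (13.8%) and in low on 3 (10.3%) by the same test. On 3 and 2 of these the call was the same as in tender beef, among them chromosome 25, where the log2 difference was 0.53 in tough and 0.68 in tender beef. On chromosomes 8 and 27 the tough differences were -0.02 and 0.04. The sign was the same on 19 of the 29 autosomes.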

How the data were processed

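MBD-seq libraries of 2 animals per group were analysed from the peak lists. The authors filtered reads with SOAPnuke, mapped them by BWA (0.7.7 in the submitters' processing notes) to bosTau8 and used only unique alignments. Their MACS2 runs (2.1.1.20160309 for single libraries, 2.1.0.20150731 for merged replicates) had no input control, a q of 0.01, at most 1 tag per position and a local window of 10000 bp. The deposited pileup is a signal of extended tags that the authors did not scale to library size. The deposited fold enrichment is a ratio to the local background, and the −log10 of the p-value and q-value are the authors' MACS2 values. Between 5770411 and 7165381 tags were left per MTE or LTE library once duplicates were removed. Over all 12 libraries the range was 3677473 (HTO_1) to 7981292 (LTO_1).

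Peaks were joined with Python 3.11.15, pandas 2.3.3 and numpy 2.4.6, and the joining was checked against bedtools 2.31.1. Exact permutation tests and Wilson intervals used scipy 1.17.1, and models used limma 3.58.1 in R 4.3.3 with a trended prior. The code was tested on simulated data. Named regions are, per direction, the 5 with the largest called difference, per class the 5 with the highest lower pileup rank and the 2 widest, and per class the 2 densest windows of 1 Mb. Named chromosomes are the 3 with the largest difference each way. Others are marked in the text as chosen after their values were seen. The region rule and the planned tests were chosen with earlier results of these data known. Genes, CpG density and sequences under the regions were not analysed here, since the reference table used a different assembly.

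Nothing in the labels ties replicate numbers of different eluates to an animal. Deviations of same-numbered libraries over the 5055 regions correlated at -0.03, so the numbers were not used as pairs. The 2 libraries of an eluate come from different animals, as the Methods state, while both eluates come from the same 2 animals. The limma p-values set the difference against the spread between 2 libraries, moderated by a trend over all regions or chromosomes fitted. Without the trend 600 regions were higher in medium and 846 in low, in place of 1222 and 1043. The exact permutation p-values rest only on the possible regroupings of the libraries. Alternatives were stricter peaks (−log10 q of 5, fold enrichment of 3), equal peak numbers, other joining rules, chromosome X, merged lists, other scalings, leaving out each library, and a replicate block.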

Additional observations from a re-analysis of the deposited data

Results flagged for a closer look

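The number of peaks, not divided by depth, was higher in medium in tender beef and lower in medium in tough beef. In tender beef both medium libraries had more autosomal peaks than both low libraries (log2 ratio 1.45), and in tough beef both had fewer (log2 ratio -0.21). Per 1000000 tags left, medium lay above low in both beefs without overlap, with log2 ratios of 1.38 and 0.13, so the opposite direction did not hold per tag. The difference between the beefs was not tested. The tags left after duplicate removal overlapped between the eluates in tender beef and were fewer in MTO (5969045 and 6010993) than in LTO (7212507 and 7981292).

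The pileup difference between the eluates was not the same in tender and tough beef in 581 of 4316 regions, by the interaction term of limma over the 8 libraries at an adjusted p of 0.05. It was smaller or more negative in tough beef in 485 and larger in 96. Of the 581 regions 551 (94.8%) had a mean pileup of 25% or more of the limit, against 73.6% of the 4316 tested. Opposite signs in the separate fits were seen in 221 (38.04%), against 18.0% of those tested. The term picks regions whose differences disagree between the beefs in these same libraries, so more opposite signs among them follow from the choice. The largest was chr19:58779455-58779746, at -2.23 on the log2 scale (limma adjusted p = 0.00135). The others among the first 4 were chr14:18276190-18276723 (1.81, limma adjusted p = 0.0211), chr2:135396769-135397394 (-1.69, limma adjusted p = 0.0158) and chr8:29649386-29649700 (-1.64, limma adjusted p = 0.0169). Unlike most of the 581, these 4 had low pileups, of 6 to 30 tags in the tender libraries. The interaction term was fitted in a single setting, quantile normalized over the 8 libraries and without a term for the animal. No other scaling was tried for it and no library left out, although the counts of the tender fit moved with both.

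The share of peaks behaved differently on 10 of the 29 autosomes by the same term. The difference was larger or less negative in tough beef on chromosomes 4, 6, 8 and 27, with the widest gap on chromosome 27 (0.57, limma adjusted p = 4.69e-05), and smaller on chromosomes 12, 18, 19, 23, 24 and 26, with the widest gap on chromosome 12 (-0.38, limma adjusted p = 0.00421). With the 9555 strongest peaks of each tender library, the tender differences of chromosomes 27 and 8 were 0.035 and -0.03. The tough values of 0.04 and -0.02 come from all peaks of the tough libraries, so they are not on the same footing. Shares in tough beef were not computed with equal peak numbers. The interaction term was fitted over all peaks only, with no library left out.

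Peaks outside the autosomes took no part in the comparison. Chromosome X had 904 and 972 peaks in MTE_1 and MTE_2 and 386 and 602 in LTE_1 and LTE_2. The mitochondrial genome had 2 and 3 peaks in MTE and 3 and 4 in LTE, with highest pileups of 44 and 51 tags in MTE and 74 and 68 tags in LTE.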

How the results depend on the processing

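Equal peak numbers gave 2069 medium-only and 1141 low-only regions, and a fold enrichment of at least 3 left 3009 regions of all 4 libraries. With 1 library left out the classes ask for less, so their counts rise by construction. They ranged from 15148 to 25058 medium-only, from 834 to 6420 low-only and from 5285 to 8103 regions with a peak in every remaining library. The width difference was 0 bp at a −log10 q of at least 5, and from -2.75 to 24.2 bp with a library left out. Of the regions of all 4 libraries, 649 and 559 were higher in medium and low at a fold enrichment of at least 3, 550 and 469 with fold enrichment in place of pileup, 2946 and 429 per 1000000 tags, 615 and 1926 after median centring, and 247 and 247 without regions at 25% or more of the limit, an alternative added after the data were seen. Without a trend 600 were higher in medium. With any tender library left out limma called 0 in each direction (1947 to 2421 at an unadjusted p under 0.05). Called in both beefs were 318 and 336 at a fold enrichment of at least 3, and 0 to 558 and 0 to 547 with a library left out. Chromosome calls were 1 and 3 with equal peak numbers, 12 in low at a fold enrichment of at least 3, and 5 to 13 in medium and 3 to 11 in low with a library left out. Chromosome 27 turned to a log2 difference of 0.035 with equal peak numbers. With the replicate block 1211 and 1050 regions and 8 and 6 chromosomes were called, the other differences were as without it, with p = 0.5 (exact sign-flip test, the smallest 2 pairs allow), and no call changed side. The named regions lost their call in 40 of 40 values with a library left out and in 0 of 107 others, and the named chromosomes in 2 of 24 and in 4 of 36. A fitted region that no longer had a peak in all 4 libraries under a setting gave no value and is not counted there. At a −log10 q of at least 5 this was so for chr17:52274096-52274575, chr19:58779455-58779746, chr3:16063397-16064371 and chr27:41474626-41475453. With equal peak numbers it was so for every one of them but chr23:38270911-38271404. Equal peak numbers leave no difference in peak number by construction, so that setting was not run for it. All other alternatives left the sign, and the counts within 1.5 times. The 2 libraries per eluate and their depth limit every p-value here.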
